A study of Homo sapiens with 41 samples.

Results

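Elongin A peaks at 10 rapidly induced genes were examined: ATF3, CDKN1A, FOS, FOSB, JUN, JUNB, JUND, EGR1, IER2 and IER3. The genes were taken as a named set of immediate early and stress response genes, 10 of the 20136 protein-coding genes used in the GENCODE annotation of hg19. They were chosen with earlier results of these data known, so their shares are not an independent excess over a background. A peak was counted at a gene when it overlapped the annotated gene, extended by 1 kb on either side. It was then placed at the promoter, in the gene body or at the gene end by its centre, and ranked by fold enrichment within its own list.

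The peaks came from DLD1, a human colon cancer cell line that carried no siRNA and was grown in serum-containing medium without an inducing stimulus. Of the 41 samples of the series, 7 belong by their labels to the 3 peak lists. For CUT&RUN, in which an antibody-tethered nuclease releases the DNA around a bound protein, 2 replicates with a goat antibody and 1 goat IgG control gave 8720 peaks, and 1 sample with a mouse antibody gave 2338 peaks. The labels list 1 mouse IgG sample, but the methods name only goat IgG as the CUT&RUN control, so the control behind the mouse antibody fold enrichments is inferred from the labels. ChIP-seq of 1 sample with 1 input control gave 186 peaks. The cells were formaldehyde-fixed. The goat antibody list does not separate its 2 replicates, so no value here has a replicate error, and the counts and ranks are descriptions with no test. Read totals are not part of the lists, so the depth behind each peak is unknown.

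Elongin A is the largest subunit of Elongin, a factor that associates with RNA polymerase II (RNAPII) and stimulates elongation on purified templates. Immediate early genes are transcribed within minutes of a growth factor, stress or DNA damage signal, without new protein synthesis. RNAPII is commonly held paused just downstream of their transcription start sites (TSSs) before induction, so that its release is a control point. Serum response factor (SRF), acting through CArG boxes with ETS-family partners, and CREB/ATF proteins, acting through cAMP response elements (CREs), are the best known activators of these promoters.

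Of the 10 genes, 9 had a goat antibody peak within 1 kb, and CDKN1A had none. The background was 21.7% of the protein-coding genes, 4377 in number. With the mouse antibody, 3 of 10 genes (JUND, EGR1 and IER2) had a peak, against 7.8% of protein-coding genes. IER3 alone had a ChIP-seq peak, against 0.785% of protein-coding genes. These genes are short: 8 of the 10 spanned less than 10 kb, and all 8 had a goat antibody peak, against 12.3% of the 5249 protein-coding genes of that length. These background shares count every annotated protein-coding gene, transcribed in these cells or not. The paper reports stronger Elongin A enrichment at genes with higher expression. Whether the 10 genes were transcribed in these cells was not analysed here. Whether expression accounts for the differences from the background was therefore not tested.

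The 16 goat antibody peaks at the 9 genes lay mostly at the boundaries of the genes. By peak centre, 6 were at a promoter, from 1000 bp upstream to 100 bp downstream of an annotated TSS. Another 7 were at an end, from 100 bp upstream to 1000 bp downstream of an annotated transcript end, and 3 were in a gene body. End peaks made up 43.8% of the peaks at these genes and 9.59% of the 7224 gene and peak pairs over all protein-coding genes, whereas gene body peaks made up 18.8% and 60.7%. Those pairs come from genes of every length, and the fixed promoter and end windows take up more of a short gene. The paper reports that short genes more often showed Elongin A in the gene body and past the transcript end. Background shares were not computed for genes shorter than 10 kb or for canonical transcripts alone. Whether short length accounts for the difference was not tested. With only the canonical transcript of each gene, the 16 peaks fell into 5 promoter, 6 gene body and 5 end peaks. The intronic peak of FOSB and the peaks over the 3′ untranslated regions of FOS and IER2 changed class.

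**Figure D1:**
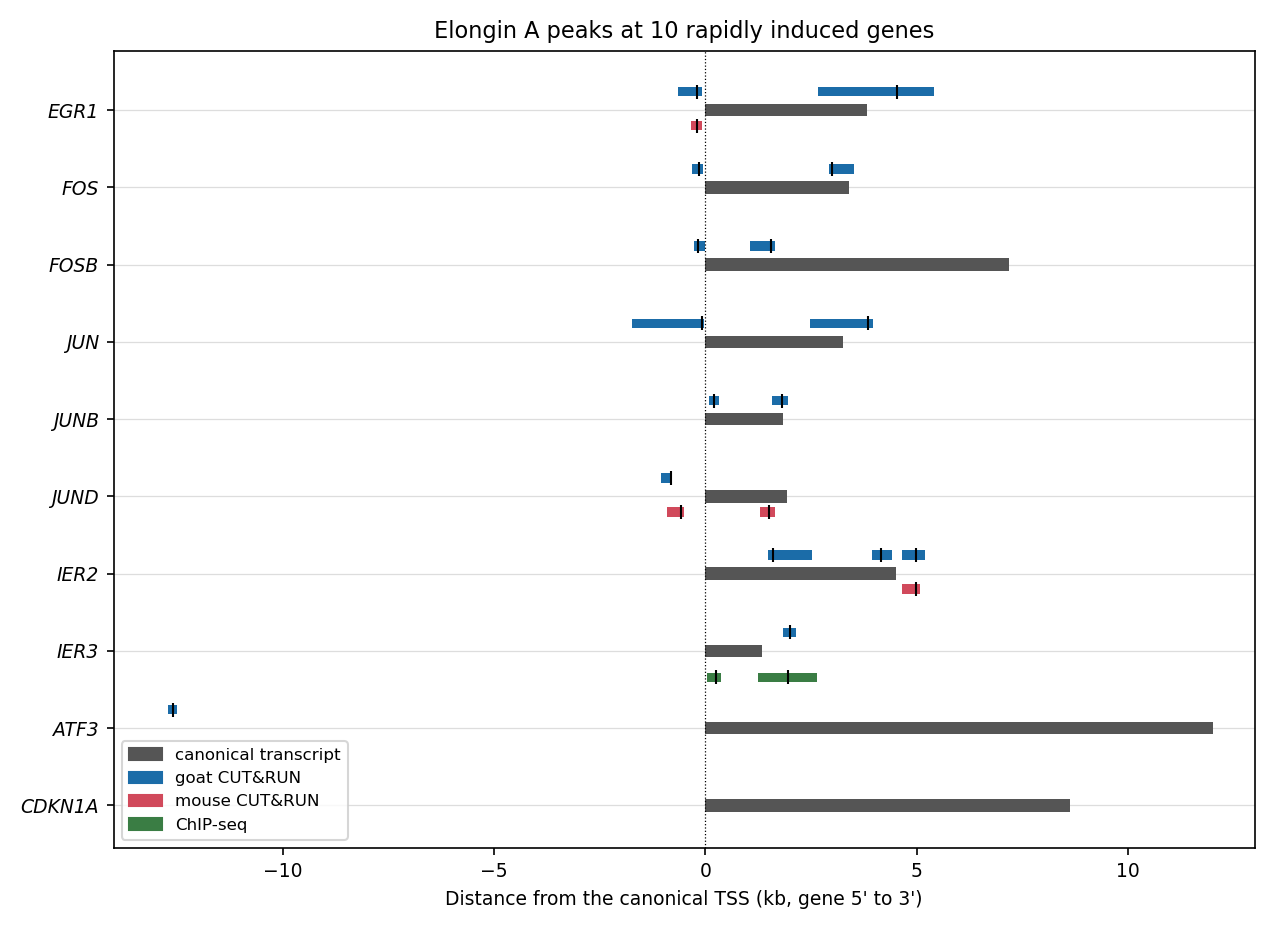
Elongin A peaks drawn to scale around the canonical TSS of each of the 10 genes, in kb and in the direction of transcription. Grey bars are canonical transcripts, coloured bars are peaks of the goat CUT&RUN, mouse CUT&RUN and ChIP-seq lists, and black ticks are summits; most of the 16 goat peaks sit just before the TSS or around the transcript end, CDKN1A has no peak and the peak of ATF3 lies 12.6 kb upstream.

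A goat antibody promoter peak was present at 5 genes (FOS, FOSB, JUN, JUND and EGR1), against 8.98% of protein-coding genes. An end peak was present at 6 genes (FOS, JUN, JUNB, EGR1, IER2 and IER3), against 2.85%. The end peak of IER3 also covered the start site of the neighbouring gene FLOT1, and the end counts include it. FOS, JUN and EGR1 carried both a promoter and an end peak, a combination found at 0.958% of protein-coding genes. A gene body peak was present at ATF3, JUNB and IER2, 3 of 10 genes against 13.4%. At least 2 goat antibody peaks were found at 6 genes (FOS, FOSB, JUN, JUNB, EGR1 and IER2), against 6.99%.

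The sequences under the promoter summits upstream of FOS, FOSB, JUN and EGR1 are shown first, because the positions of the activator sites can be read against the summits. Each of the first 3 lines gives the 120 bp centred on a goat antibody summit on the transcribed strand, and the last gives the 300 bp before the EGR1 TSS, which hold that summit too. Capitals mark a GC box (GGGCGG) at FOS, an ETS site (TTCCGG, here on the other strand) at FOSB, and GC boxes, a CCAAT box and a CRE-like site at JUN. Of the 1776 windows of 120 bp around goat antibody promoter summits, 13.7% held a GC box, 16.7% a CCAAT box and 5.69% an ETS site. At EGR1 only the CArG boxes are in capitals. They lie outside the 120 bp around the EGR1 summit, which held none of the searched motifs, and the longer stretch is printed to show them. The 120 bp around the goat antibody summit upstream of JUND also held none and are not printed. The sequence at the intronic FOSB summit, classed as a promoter peak through an alternative TSS, is not described.
FOS, chr14:75745333-75745452, plus strand: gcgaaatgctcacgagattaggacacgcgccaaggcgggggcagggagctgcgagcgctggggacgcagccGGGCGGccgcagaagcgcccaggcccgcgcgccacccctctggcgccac
FOSB, chr19:45971029-45971148, plus strand: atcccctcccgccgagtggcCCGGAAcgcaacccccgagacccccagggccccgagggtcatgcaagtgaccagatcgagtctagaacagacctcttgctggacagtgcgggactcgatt
JUN, chr1:59249730-59249849, minus strand: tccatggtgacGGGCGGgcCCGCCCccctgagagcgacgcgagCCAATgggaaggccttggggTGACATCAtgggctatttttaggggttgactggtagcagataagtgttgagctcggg
EGR1, chr5:137800868-137801167, plus strand: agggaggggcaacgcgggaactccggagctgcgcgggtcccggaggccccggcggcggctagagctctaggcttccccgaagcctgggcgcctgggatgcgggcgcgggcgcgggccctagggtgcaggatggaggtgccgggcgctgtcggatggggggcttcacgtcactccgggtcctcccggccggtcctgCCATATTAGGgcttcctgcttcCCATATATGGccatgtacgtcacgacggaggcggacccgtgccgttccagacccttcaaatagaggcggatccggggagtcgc

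EGR1, a zinc finger transcription factor and a standard marker of growth factor signalling, had the strongest peak of the set in both CUT&RUN lists. Its goat antibody promoter peak (chr5:137800532-137801090, 559 bp) had a fold enrichment of 10.5 and a −log10 q-value of 77.8. It ranked 68 of 8720 by fold enrichment and 16 by q-value. The mouse antibody peak (chr5:137800825-137801087, 263 bp) had a fold enrichment of 8.23, ranked 15 of 2338, and a −log10 q-value of 30.6, ranked 8. It lay wholly inside the goat antibody peak. The summits were 205 and 202 bp upstream of the TSS and 3 bp apart. Both antibodies therefore marked the same short stretch in front of EGR1, whereas the ChIP-seq list had no peak on chromosome 5.

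The EGR1 promoter also differed from the other promoters in its CArG boxes, the sites of SRF. In the 500 bp before the TSS, a window chosen after seeing the data, it held 5, starting 418, 380, 364, 105 and 83 bp upstream. Only EGR1 of the 20136 protein-coding genes held at least 3 in this window (0.00497%), and 2.39% held at least 1. The goat antibody peak contained the first 4 of these boxes and ended 78 bp upstream of the TSS, inside the fifth. The mouse antibody peak contained only the box at 105 bp and ended 81 bp upstream, also inside the fifth. The summits lay between the distal and the proximal boxes. FOS and FOSB held 1 CArG box each, starting 314 and 274 bp upstream, and in each case their promoter peak did not contain the whole box. The other 7 genes held none in this window.

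EGR1 had a further goat antibody peak over its 3′ end (chr5:137803824-137806572). At 2749 bp it was the widest peak of the set and the 41st widest of the list. Its fold enrichment of 3.21 ranked 7578 of 8720, and its −log10 q-value of 5.59 ranked 3398. The peak began 2656 bp into the gene and ran past the annotated end, with its summit 706 bp beyond it. Broad and low, it stood in contrast to the narrow and strong peak in front of the same gene.

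FOS and FOSB, the FOS-family subunits of the AP-1 transcription factor, each had a goat antibody summit within 200 bp upstream of the TSS and no peak in the other 2 lists. At FOS the promoter peak (chr14:75745224-75745473, 250 bp) had a fold enrichment of 2.96 and a −log10 q-value of 2.23, and its summit was 138 bp upstream. It ranked 8099 of 8720 by fold enrichment, among the weakest of the list. The end peak of FOS was the stronger (chr14:75748465-75749051, 587 bp), with a fold enrichment of 6.74 (rank 616) and a −log10 q-value of 6.59. Its summit lay in the 3′ untranslated region, 404 bp before the transcript end. This peak was classed as an end peak only through another annotated FOS transcript, and by the canonical transcript it was a gene body peak. The order of promoter and end at FOS was thus the reverse of that at EGR1.

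At FOSB the promoter peak (chr19:45970986-45971251, 266 bp) had a fold enrichment of 4.98 and ranked 2663. Its −log10 q-value of 13.6 placed it higher, at rank 453. The summit was 165 bp upstream of the TSS and the peak stopped 3 bp before it. A second peak (chr19:45972322-45972892, 571 bp) had a fold enrichment of 3.46, rank 6960, and lay in an intron with its summit 1553 bp downstream. It was classed as a promoter peak only through an alternative TSS of FOSB, 327 bp from the summit. No end peak was called at FOSB, and a long annotated transcript of ERCC1 spans both summits.

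JUN, JUNB and JUND encode the partners of the FOS proteins in AP-1, and the canonical transcript of each has 1 exon. JUN had 2 wide goat antibody peaks. The promoter peak (chr1:59249747-59251460) was 1714 bp wide, the 100th widest of the list, but had a fold enrichment of 2.59, rank 8614 of 8720. It reached 1741 bp upstream and covered the start sites of 2 long noncoding RNA genes, LINC01135 and ENSG00000290013, so signal at JUN and at these genes cannot be told apart. Its summit was 70 bp upstream of the JUN TSS. As the printed sequence shows, the CRE-like site TGACATCA, of a kind known to be bound by dimers of JUN and ATF2, lies 3 to 10 bp from that summit on its downstream side. A CRE-like site was found in 1.52% of the 1776 windows of 120 bp around goat antibody promoter summits.

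The end peak of JUN (chr1:59245763-59247237) was 1475 bp wide, with a fold enrichment of 4.03 (rank 5201) and a −log10 q-value of 5.47. It covered the last part of the canonical transcript, and its summit lay 601 bp past the transcript end, in an intron of a longer annotated JUN transcript. The summit sequence is shown because it contains the recognition site of the JUN protein family itself, the AP-1 site TGAGTCA, in capitals below.
JUN end, chr1:59245803-59245922, minus strand: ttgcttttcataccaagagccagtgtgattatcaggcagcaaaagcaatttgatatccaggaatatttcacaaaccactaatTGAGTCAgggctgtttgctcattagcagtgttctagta
The AP-1 site, 22 to 28 bp from the summit, is a description of the sequence. The sequences at the end summits of FOS, JUNB, IER2 and IER3 are not printed, so this site cannot be set against theirs. An AP-1 site (TGANTCA) was present in 4.09% of the windows around all 8720 goat antibody summits. In the 200 bp before the TSS it was present at none of the 10 genes and at 3.74% of all protein-coding genes.

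JUNB carried its stronger peak just inside the gene. This goat antibody peak (chr19:12902387-12902627, 241 bp) had a fold enrichment of 6.47, rank 801, and a −log10 q-value of 8.87. Its summit was 195 bp downstream of the TSS, in the 5′ untranslated region. The second peak (chr19:12903881-12904250, 370 bp) straddled the transcript end, with its summit 11 bp before it and a fold enrichment of 3.68, a value that 74 peaks of the list share at rank 6243. A long transcript of HOOK2 spans the whole of JUNB.

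Unlike JUN and JUNB, JUND had no goat antibody peak over its transcript. Its goat antibody peak (chr19:18393237-18393480, 244 bp) had a fold enrichment of 4.91, rank 2772, and a −log10 q-value of 3.87. The summit was 809 bp upstream of the TSS and 354 bp from the start of MIR3188. The mouse antibody peak nearest to it (chr19:18392947-18393330) had a fold enrichment of 3.48 and a −log10 q-value of 1.31, rank 2266 of 2338 by q-value, close to the calling limit. The peaks shared 94 bp and their summits were 226 bp apart, so the overlap was at their edges. A second mouse antibody peak at JUND (chr19:18390786-18391126) lay over the 3′ untranslated region, with a fold enrichment of 3.86, rank 1638, and overlapped no goat antibody peak.

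IER2, an immediate early gene whose product acts in transcriptional regulation, had the most peaks. The first goat antibody peak (chr19:13262715-13263743, 1029 bp) had a fold enrichment of 4.90, rank 2868. Its summit was in the intron, 1610 bp downstream of the canonical TSS and 46 bp from an alternative TSS of IER2. The peak also covered the start site of another annotated gene, ENSG00000287296, so signal at IER2 and at that gene cannot be told apart. The second (chr19:13265176-13265651, 476 bp) was the strongest of the gene, with a fold enrichment of 7.46, rank 357, a −log10 q-value of 15.2 and a summit in the 3′ untranslated region. That summit was 376 bp from the start site of ENSG00000267598, also a separately annotated gene. The third (chr19:13265879-13266414, 536 bp) had a fold enrichment of 4.23, rank 4548, and a summit 485 bp past the transcript end. IER2 was thus marked within and behind the gene, with no promoter peak at its canonical TSS.

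The mouse antibody list held a peak at the same place behind IER2 (chr19:13265879-13266294, 416 bp), with a fold enrichment of 3.35, rank 2087 of 2338. It lay wholly within the third goat antibody peak, the summits were 2 bp apart, and its −log10 q-value was 1.86.

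Behind EGR1, the 120 bp around the goat antibody summit of the end peak hold none of the searched motifs. They are shown for comparison with the sequence before its TSS, and no letters are in capitals.
EGR1 downstream, chr5:137805638-137805757, plus strand: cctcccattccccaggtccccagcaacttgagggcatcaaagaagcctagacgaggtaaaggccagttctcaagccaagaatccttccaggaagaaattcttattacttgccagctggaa

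IER3, a stress-inducible gene that modulates cell survival, was the only member in the ChIP-seq list. One ChIP-seq peak (chr6:30711948-30712286, 339 bp) had a fold enrichment of 8.05, rank 114 of 186, and a summit in the intron 248 bp downstream of the TSS, where the noncoding gene HCG20 is also annotated. The other (chr6:30709674-30711085) was 1412 bp wide, the second widest of the list, with a fold enrichment of 15.4, rank 49, and a −log10 q-value of 48.3. Its summit was 609 bp past the end of IER3 but 97 bp from the TSS of FLOT1, the neighbouring gene for a membrane scaffold protein. The goat antibody peak at IER3 (chr6:30710179-30710480, 302 bp) lay inside this ChIP-seq peak, with summits 38 bp apart, and had a fold enrichment of 3.68. Its summit was 135 bp from the FLOT1 TSS. For both peaks, the end of IER3 and the start of FLOT1 cannot be told apart. The ChIP-seq peak also covered the start site of IER3-AS1, another annotated gene. Without the peak at the FLOT1 start, an alternative chosen after the data were seen, 8 of 10 genes had a goat antibody peak. No matching share of all protein-coding genes was counted.

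ATF3 and CDKN1A were the members without a peak near a canonical transcript. ATF3, a CREB/ATF-family factor induced by many stresses, had 1 goat antibody peak (chr1:212769386-212769615, 230 bp) with a fold enrichment of 4.53, rank 3764, and a −log10 q-value of 9.94, rank 1067. It lay 12.6 kb upstream of the canonical TSS, in an intron of longer annotated ATF3 transcripts and 12507 bp from the nearest ATF3 start site. CDKN1A, which encodes the p21 inhibitor of cyclin-dependent kinases and is a classical p53 target, had no peak in any list. The nearest summits were 75.8 kb upstream in the goat antibody list and 82.1 kb upstream in the mouse antibody list. A gene without a called peak is one below the calling threshold of that list, and with the depth unknown a weak signal cannot be told from none.

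**Figure D2:**
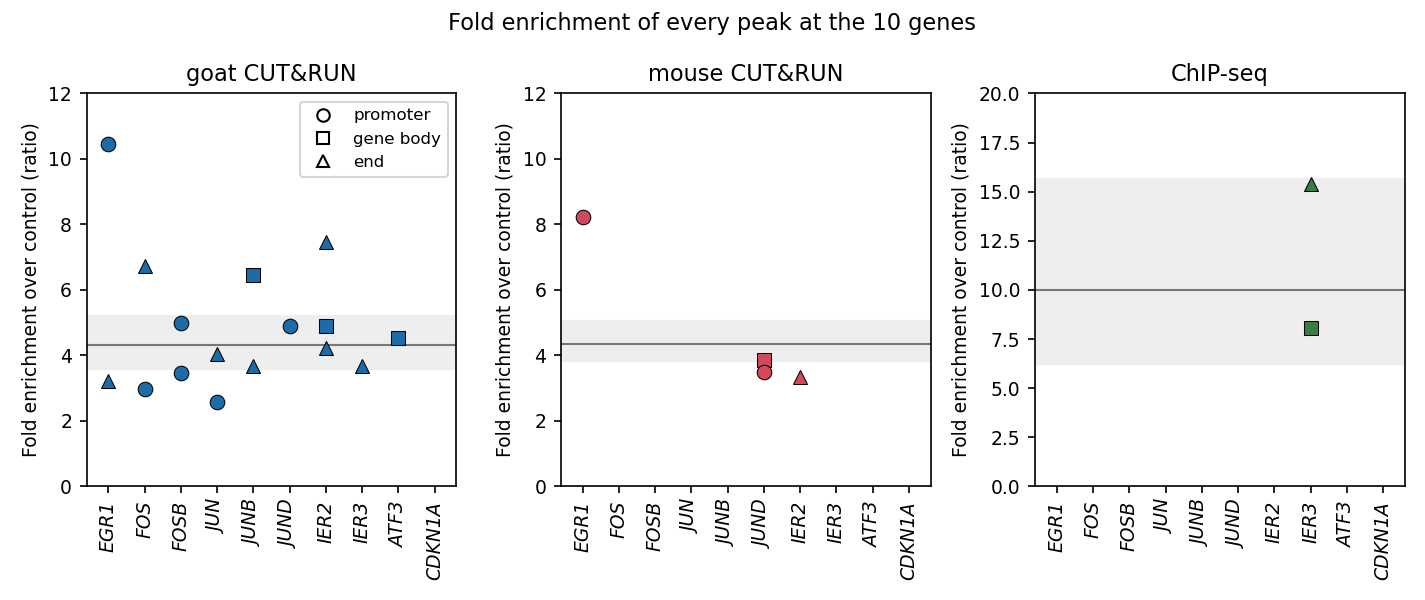
Fold enrichment over the control, a ratio on a linear axis, of every peak at the 10 genes, with 1 panel for each list and 1 point for each peak, shaped by position; the line is the median of all peaks of the list and the grey band their interquartile range. EGR1 reaches 10.5 and 8.23 in the CUT&RUN panels, FOS, JUNB and IER2 also have a goat peak above the band, and only IER3 has points in the ChIP-seq panel.

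Fold enrichment varied among the members from 2.59 at the JUN promoter to 10.5 at the EGR1 promoter, beside a median of 4.32 (interquartile range 3.60 to 5.20) over the goat antibody list. The strongest peak exceeded 5 at FOS, JUNB, EGR1 and IER2. The median of the strongest peaks was 4.98 over the 9 members, at the 69.4th percentile of the list. Over the 4377 protein-coding genes with a peak it was 4.66, at the 60.8th percentile. Ranked by q-value, the medians were at the 84.3rd and 60.4th percentiles. In the mouse antibody list the median over 3 members was 3.86 and over all genes with a peak 4.48. After EGR1 at rank 68, the next members in the goat antibody list were IER2 at 357, FOS at 616 and JUNB at 801. The mouse antibody peaks of JUND and IER2 were below the list median of 4.36.

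**Figure D3:**
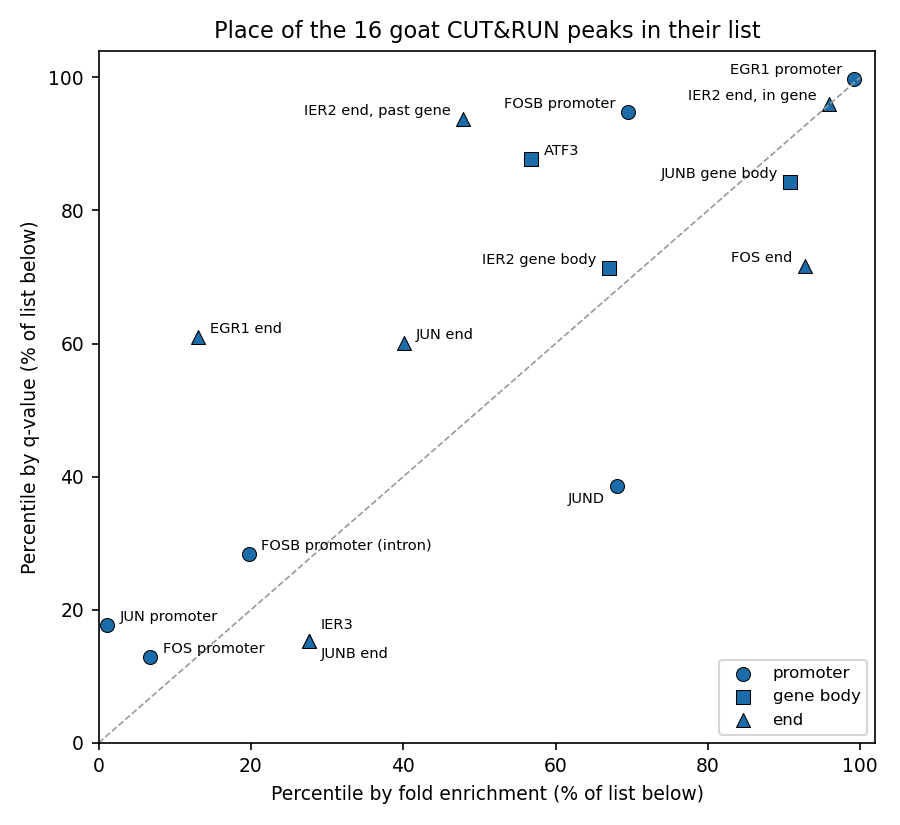
Each of the 16 goat antibody peaks by its percentile in the list for fold enrichment (horizontal axis, %) and for q-value (vertical axis, %), with shapes for position and a dashed line where both are equal. The EGR1 promoter is at the top right (ranks 68 and 16 of 8720), and the wide EGR1 end peak lies far above the line, at rank 7578 by fold enrichment and 3398 by q-value.

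Goat antibody peaks covered 33.4% of the canonical transcript of IER2, 30.6% of EGR1, 26.8% of JUNB, 23.8% of JUN, 13.8% of FOS and 7.95% of FOSB. They covered none of the canonical transcripts of JUND, IER3, ATF3 and CDKN1A. Of the JUN family, JUN and JUNB were thus partly covered and JUND was not.

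Both antibodies gave a peak at few of these genes. JUND, EGR1 and IER2 had a peak in both CUT&RUN lists, 3 of 10 genes against 4.75% of protein-coding genes. Of the 16 goat antibody peaks 18.8% overlapped a mouse antibody peak, against 8.33% of the 8720 goat antibody peaks. Of the 4 mouse antibody peaks 75.0% overlapped a goat antibody peak, against 32.4% of the 2338. At q-values under 0.01, EGR1 alone remained in both CUT&RUN lists, and the share of all protein-coding genes was not recounted at that limit.

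Promoter elements were searched as exact letters on both strands in the 200 bp before the canonical TSS of every protein-coding gene. A TATA box (TATAAA) was found at ATF3, FOS, FOSB and JUNB, against 7.84% of the 20136 windows, which counts a match anywhere in the 200 bp. In these 4 genes it started 30 to 33 bp upstream. A CRE (TGACGTCA) was found at JUND, starting 200 bp upstream, against 2.28%. The CRE-like pattern (TGACNTCA, which includes the CRE) was found at JUN and JUND, against 5.78%. A CCAAT box was found at JUN, JUNB, JUND and IER3, against 30.3%, and a GC box at 7 members, against 56.0%. An ETS site was found at CDKN1A and IER2, against 17.2%, and a CArG box at EGR1, against 0.949%. The TATA-containing members included ATF3, with no peak at its canonical promoter, and FOS and FOSB, with one. JUNB had no promoter peak but a gene body peak with its summit 195 bp downstream of the TSS.

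Related genes were counted from 4 lists. Of 36 other immediate and delayed early genes, 18 (50.0%) had a goat antibody peak, 10 of them at a promoter and 6 at an end, with a median strongest fold enrichment of 5.03. The highest were KLF6 and MYC at 7.77, both transcription factors, and ZFP36L1 at 6.91, an mRNA decay factor. CCN1, a secreted matrix protein gene, had a ChIP-seq peak at its end with a fold enrichment of 7.30. The strongest peak of MYC was at the promoter, that of KLF6 in the gene body and that of ZFP36L1 at the end.

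Of 16 integrated stress response and related stress genes, 11 (68.8%) had a goat antibody peak, 8 at a promoter and 4 at an end, with a median strongest fold enrichment of 5.48. HSPA5, the main chaperone of the endoplasmic reticulum, had 6 peaks with a highest fold enrichment of 6.34, at its end. HERPUD1, a component of endoplasmic reticulum-associated degradation, had 5 with a highest of 5.92, and SQSTM1, an autophagy receptor, reached 5.57. DDIT4, an inhibitor of mTORC1 signalling, had a ChIP-seq peak at its end with a fold enrichment of 6.98.

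Of 19 other p53 target genes, 7 (36.8%) had a goat antibody peak and none a mouse antibody or ChIP-seq peak. The mouse antibody and ChIP-seq shares over all protein-coding genes were themselves low, 7.8% and 0.785%. PLK2 had the highest fold enrichment at 5.19, TNFRSF10B, a death receptor, 5.09, and BBC3, the proapoptotic PUMA, 4.46. Of 14 transcription factors that induce these genes, 7 (50.0%) had a goat antibody peak. The highest were MRTFA, an SRF coactivator, at 9.16, ATF2 at 6.89 and SRF itself at 4.68, all in the gene body. Beside the 21.7% of all protein-coding genes and their median of 4.66, the stress list had the highest share of the 4, and the p53 list the lowest.

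**Figure D4:**
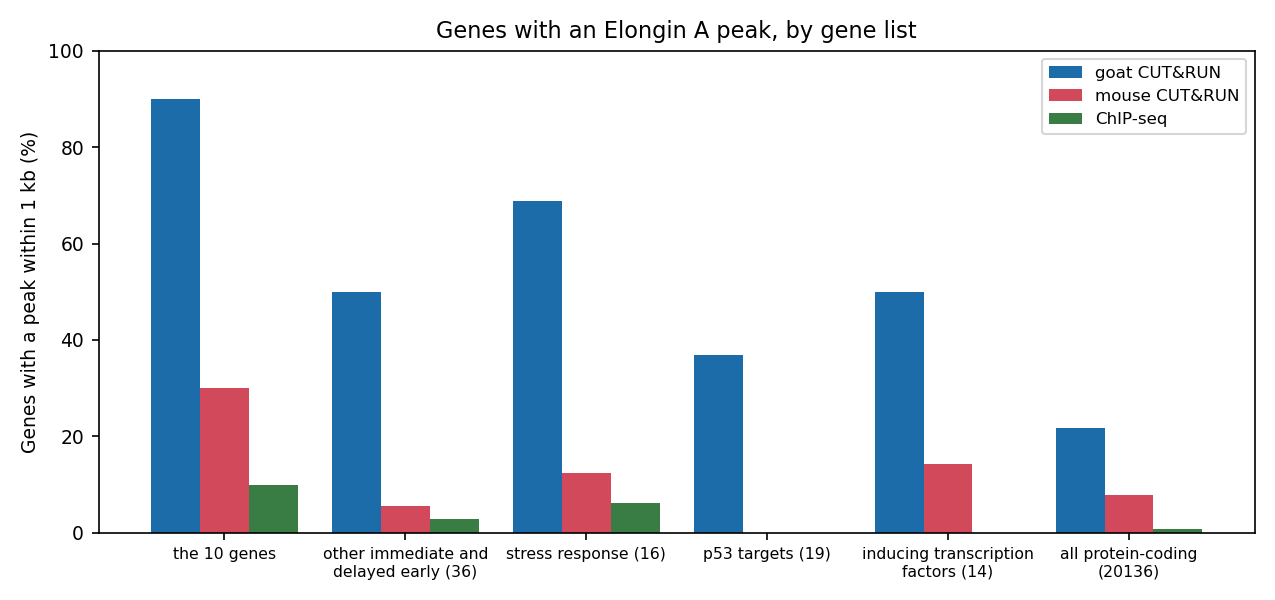
Share of genes with a peak within 1 kb (%), as bars from 0, for the 10 genes, 4 related lists and all protein-coding genes, with 1 colour for each peak list. The goat antibody share is 90.0% for the 10 genes, 50.0%, 68.8%, 36.8% and 50.0% for the related lists and 21.7% for all protein-coding genes; lists differ in gene length and no test was made.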

How the data were processed

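Peak lists of Elongin A in DLD1 cells were used as deposited. The authors mapped the read pairs with Bowtie2 on hg19, discarded PCR duplicates and ran MACS2 with its defaults, with IgG (CUT&RUN) or input (ChIP-seq) as the control. The deposited fold enrichment is a ratio over the local control, and the deposited −log10 p-values and −log10 q-values are those of the authors' caller, with a default q-value limit of 0.05. How the 2 goat antibody replicates were combined is not given in the sources used here.

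Positions count from 1. Gene models were those of GENCODE 44 mapped back to GRCh37, whose sequence was also used. The search was run in Python 3.11.15 with pandas 2.3.3 and pysam 0.24.0 and was tested on simulated data, where all 200 planted peaks were assigned to their gene. An overlap of 1 bp was required. The 32 bp at every summit of a member's peak occurred once in the genome. All 10 members are described. From the other lists, the 3 genes highest by fold enrichment in the goat antibody list and any with a ChIP-seq peak were named, as was a neighbouring gene holding a member's summit. Members and lists were chosen with earlier results of these data known. The 500 bp window for CArG boxes was chosen after seeing the data. Alternatives were stricter q-value and fold enrichment limits, other flanks, windows and transcript sets, summits in place of centres, and merged peaks. The RNAPII ChIP-seq and RNA experiments were not analysed here.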

Additional observations from a re-analysis of the deposited data

How the results depend on the processing

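The values rest on called peaks without read totals or replicate values, so small differences in fold enrichment or rank have no error. At a fold enrichment of at least 5, the goat antibody list kept 4 members, with 1 promoter, 2 end and 1 gene body peak, and 8.71% of protein-coding genes. The mouse antibody list then kept 1 member, EGR1, with 1 promoter, 0 end and 0 gene body peaks, as it did at q-values under 0.01 and under 0.001; the shares of all protein-coding genes were 2.36%, 6.47% and 4.23%. With no flank, 1 mouse antibody member, JUND, was left. With canonical transcripts only, gene body peaks at members of the goat antibody list numbered 6. By peak summit, the mouse antibody peaks comprised 2 end and 0 gene body peaks, and with promoters 500 bp either side of a TSS, 1 promoter peak. Ranked by q-value, the median percentile of the strongest peaks was 84.3 (goat antibody) and 15.5 (mouse antibody), and with peaks within 1 kb merged it was 68.1 (goat antibody). At q-values under 0.001, 1 goat antibody peak overlapped a mouse antibody peak, and under 0.01 and under 0.001, alternatives chosen after seeing the data, 1 member was in both CUT&RUN lists. The ChIP-seq count of 1 member was the same under all alternatives run. In all, 27 alternative values were classed as moved and 43 as the same. The second class allowed smaller changes in counts. At q-values under 0.001, for example, goat antibody promoter peaks went from 6 to 4 and end peaks from 7 to 5. A median percentile that went from 69.4 to 68.1 was classed as moved. The goat antibody count of members was 8 at q-values under 0.001 (without IER3, against 17.7% of protein-coding genes) and with canonical spans (without ATF3), and 7 with no flank. The share of all protein-coding genes was not recounted for other flanks, canonical spans or genes in both CUT&RUN lists. Those counts therefore have no matching background. No paired analysis was possible because the lists give 1 value per peak with no column for each replicate, and leaving out a replicate was not possible for the same reason.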
